A study of Mus musculus with 4 samples.

Results

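The replication-dependent histone genes are the clustered genes that supply most of the histone protein packed onto newly made DNA. They were taken as all genes with a Hist1h, Hist2h, Hist3h or Hist4h symbol that are not pseudogenes and had at least 10 counts summed over the 4 libraries. Of 70 genes with such a symbol, 3 were pseudogenes, 20 had fewer than 10 counts (10 of them no count in any library) and 47 were kept, out of 15439 genes with at least 10 counts among 53647 listed. They comprise 4 H1, 10 H2A, 13 H2B, 9 H3 and 11 H4 genes, 41 in the Hist1 cluster on chromosome 13, 3 in Hist2 on chromosome 3, 2 in Hist3 on chromosome 11 and 1 in Hist4 on chromosome 6. The summed count that chose them uses all 4 libraries alike and not the contrast. Hist1h2bf, with 11 counts, lay just inside the limit, and Hist1h2ao and Hist1h4b, with 8 counts each, lay just outside it.

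RNA came from 4T1 cells, a mouse mammary carcinoma line, here of wild-type genotype. Cells of one group were given uniSTING mRNA, coding for an engineered protein that mimics STING signalling in innate immunity. Cells of the Mock group were given EGFP mRNA, coding for a fluorescent protein, so that both groups received an exogenous mRNA. TransIT-mRNA reagent and SS-OP lipid nanoparticles are both described as carriers, without saying which served which library, and neither dose nor time is stated. Each group has 2 libraries, numbered as preparations, with 18843543 and 25071840 counts for uniSTING and 17502694 and 22039546 counts for Mock. Nothing says that the preparations were separate cultures, so the p-values rest on a spread that may be technical. The epithelial markers Epcam, Krt8, Krt18, Krt14 and Cdh1 were well counted in every library, the lowest value being 178 CPM (counts scaled to an effective library size) for Krt14 in Mock replicate 1, while Krt5, the remaining one on the list, was at 0 or near it. Summed leukocyte markers (6 genes) were at 10.4 to 11.8 CPM in uniSTING and 6.43 to 8.91 CPM in Mock, with Cd68 alone at 10.7 and 10.4 CPM in uniSTING and 8.34 and 6.43 CPM in Mock, and with Itgam at 0 in every library. Summed endothelial markers (4 genes) were at 0.402 to 1.60 CPM in uniSTING and 0.272 to 1.93 CPM in Mock, and fibroblast markers (5 genes) at 8.88 to 11.3 CPM in uniSTING and 6.79 to 8.62 CPM in Mock. The part of other cell types in the results was not tested. A set of 54 genes, none of them a histone gene of this family, was seen almost only in the replicate 1 libraries.

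Synthesis of these histones is tied to S phase, when NPAT at the histone locus body drives their transcription. Their mRNAs are not polyadenylated as a rule. They end shortly after a conserved stem-loop that binds SLBP, the stem-loop binding protein, and are degraded quickly when DNA synthesis stops. Some of the genes, in human cells among them the counterparts of Hist1h1c, Hist1h2bk and Hist2h2be, can also give polyadenylated mRNAs. The labels state neither poly(A) selection nor rRNA depletion for these libraries, and that choice sets which form of the mRNA was counted.

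The stem-loop shows what the members share at their 3′ ends and is printed for genes the results turn on, from transcripts of GENCODE M21 (GRCm38), with the 16 bases of stem and loop in capitals.
Hist1h1e: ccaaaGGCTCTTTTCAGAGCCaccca
Hist1h1d: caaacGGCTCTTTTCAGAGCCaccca
Hist1h1c: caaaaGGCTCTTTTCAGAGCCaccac
Hist2h2ac: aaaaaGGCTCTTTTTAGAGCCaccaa
Hist1h2bk: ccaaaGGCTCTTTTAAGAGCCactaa
Hist1h3e: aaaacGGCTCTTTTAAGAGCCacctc
Hist1h4d: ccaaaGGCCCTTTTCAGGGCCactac
Hist2h4: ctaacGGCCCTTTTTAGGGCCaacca
Hist1h4i: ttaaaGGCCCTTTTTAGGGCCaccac
The motif searched, on the transcript strand, was a stem of 6 complementary pairs (G with T allowed) that opens with GGNNNT and closes with ANNNCC, around the loop TNTN. It was found in annotated transcripts of 34 of the 47 members, against 108 of 21901 protein-coding genes (0.493%), members included. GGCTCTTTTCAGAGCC was the commonest form, in 17 members of the H1, H2A, H2B and H3 classes and in no H4 gene. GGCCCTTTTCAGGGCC was found in 6 members, all H4 genes. In 15 members the annotated transcript ended within 100 bases of the stem-loop, in 19 it ran further, and in 13 the letters were not found. Some of these 13 have short annotated exons, such as Hist1h4k with 312 bases and Hist1h2bl and Hist1h2bn with 381 each. Others have longer ones, such as Hist2h2be with 2620 bases, Hist1h2bc with 1156 and Hist1h1b with 743. A missing match thus means only that the letters searched were not in the annotated transcripts. Its cause was not tested, and it does not show that the gene lacks a stem-loop.

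These RNAs were a small part of the counts. Summed over the 47 genes they made up 3.98 and 3.98 of every 100000 counts in the uniSTING libraries, against 8.76 and 9.37 in the Mock libraries. In CPM the sum was 40.0 and 40.1 in uniSTING and 87.0 and 93.4 in Mock, a ratio of 0.444 (SD 0.022). Both uniSTING sums lay below both Mock sums. With 2 libraries a group an exact permutation test cannot give a two-sided p below 0.333, so no test of sums is given. In bulk RNA, fewer cells in S phase and less histone mRNA per cell cannot be told apart.

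Gene by gene, both uniSTING libraries lay below both Mock libraries for 39 of the 47 genes (83.0%), against 34.7% of all genes with at least 10 counts. They lay above both for 3 genes, Hist1h2bc, Hist1h4i and Hist3h2a, against 35.9% of those genes, and they overlapped for 5. Summed counts per library size were at most 0.5 of Mock's for 36 of the 47, against 4.62% of genes with at least 10 counts, and the median ratio was 0.279, against 1.01 over those genes. The counting filter passed 36 of the 47 genes to the test. Among the 36, 17 passed through the Mock libraries alone, where they were higher. A further 4, Hist1h3e, Hist1h4d, Hist1h3d and Hist1h4n, were at the filter's level in both Mock libraries but only 1 uniSTING library. As 1 library alone was not enough to pass, these 4, which all fell, depended on the Mock libraries too. A count over the tested genes thus overstates the share that fell. Of the 36, 27 fell (edgeR quasi-likelihood test, Benjamini-Hochberg adjustment over all 12972 genes tested, threshold 0.05), 9 did not pass and none rose, against 25.4% of all tested genes lower and 24.9% higher. At an unadjusted p of 0.05, 1 member was higher (Hist1h4i), and DESeq2 and limma-voom also called none higher. Each of the 27 fell at least 2-fold, against 1.19% of all tested genes, and 15 fell at least 4-fold. They made up 17.4% of the 155 genes that fell at least 2-fold, and 10 of the 20 called genes with the lowest fold change. These counts also include genes that passed through the Mock libraries alone, such as Hist2h2ac and Hist1h2bj, and carry the same limit. Among 15 members at or above the filter's level in both uniSTING libraries as well, 9 fell and 6 did not pass, with a median log2 fold change of -1.46.

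**Figure D1:**
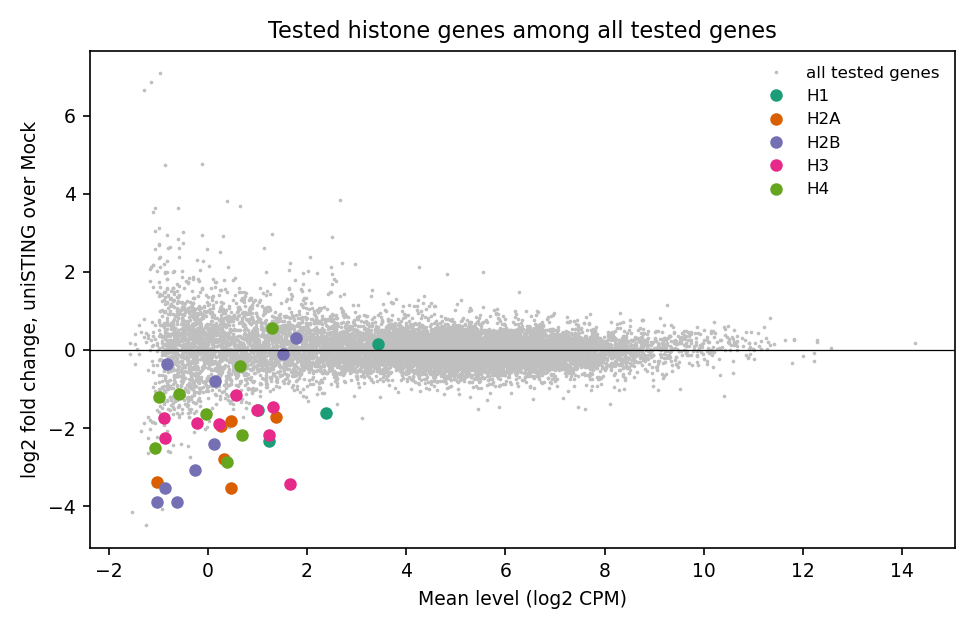
Log2 fold change of uniSTING over Mock (vertical axis) against the mean level in log2 CPM (horizontal axis) for all 12972 tested genes (grey) and the 36 tested histone genes, coloured by class. Most histone genes lie below the cloud at the same level, with a median of -1.85 against 0.0058 over all tested genes, and 3 lie above 0.

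H1 linker histones bind the DNA between nucleosomes and close the chromatin fibre. Hist1h1e (current symbol H1f4; chromosome 13, 23804612 to 23806541, minus strand, GRCm39, as are the gene positions that follow) had 2.14 and 2.93 CPM in the uniSTING libraries, against 7.49 and 8.28 CPM in the Mock libraries. The groups did not overlap, and the gene fell by 1.62 on the log2 scale (SE 0.18, adjusted p = 2.33e-05). Its exons share 496 bases with those of Hist1h2be on the same strand, and reads there cannot be assigned to either. Hist1h1d (H1f3) had 0.854 and 0.683 CPM in uniSTING and 3.29 and 4.34 CPM in Mock. It fell 5.01-fold (log2 fold change -2.32, SE 0.28, adjusted p = 4.62e-05). Hist1h1b (H1f5) averaged 0.976 ± 0.324 CPM in uniSTING and 2.90 ± 0.571 CPM in Mock (SD, n = 2 each), a 2.92-fold fall. Hist1h1c (H1f2; chromosome 13, 23922791 to 23924350, plus strand) did otherwise, at 12.01 and 10.5 CPM in uniSTING and 9.13 and 11.0 CPM in Mock. Its groups overlapped and it did not pass (log2 fold change 0.15, SE 0.12, adjusted p = 0.331), and its sign turned on removal of a length trend (-0.045). The exact 95% interval of its count ratio was 0.958 to 1.25. Such intervals, here and elsewhere, cover counting error only. Hist1h1c made up 27.8% of all member counts in uniSTING and 11.2% in Mock. As a class, H1 summed to 15.5 ± 0.311 CPM in uniSTING and 24.7 ± 3.19 CPM in Mock, and without Hist1h1c the 46 other histone genes had a ratio of 0.359, against 0.444 with it.

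H2A and H2B form the dimers that flank the H3-H4 tetramer in the nucleosome. All 6 tested H2A genes fell, against 25.4% of all tested genes. Of the 6, Hist2h2ac, Hist1h2ak, Hist1h2af and Hist1h2ah passed the filter through the Mock libraries alone, so this count overstates the share that fell. The class summed to 4.02 ± 0.171 CPM in uniSTING and 15.01 ± 2.45 CPM in Mock, a ratio of 0.268. Hist2h2ac (H2ac20; chromosome 3, 96127677 to 96128196, minus strand) had 4 and 5 counts in uniSTING, or 0.214 and 0.201 CPM, against 37 and 61 counts in Mock, or 2.10 and 2.76 CPM. It fell by 3.53 on the log2 scale (SE 0.41, adjusted p = 3.61e-05). Hist1h2ae (H2ac8) had 1.12 and 1.25 CPM in uniSTING and 3.69 and 4.16 CPM in Mock, a 3.30-fold fall. Hist1h2ab (H2ac4) averaged 0.575 ± 0.0175 CPM in uniSTING and 2.06 ± 0.0997 CPM in Mock and fell 3.56-fold. Hist1h2ak and Hist1h2af fell 6.91-fold and 3.85-fold. The H2A genes under the filter went both ways, with Hist1h2an at 1 count in uniSTING and 18 in Mock, and Hist3h2a (H2aw) at 13 and 12 counts in uniSTING and 5 and 10 in Mock, a count ratio of 1.52 (0.769 to 3.10).

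The H2B class was split. Of 9 tested genes 5 fell and 4 did not pass, against 25.4% of all tested genes lower. The 5 that fell had each passed the filter through the Mock libraries alone. The class summed to 8.41 ± 0.414 CPM in uniSTING and 15.1 ± 0.0956 CPM in Mock. In uniSTING, though not in Mock, most of that sum came from Hist1h2bc and Hist2h2be, the only H2B genes with at least 100 counts, which on their own gave a ratio of 1.08 in place of 0.559. Hist2h2be (H2bc21; chromosome 3, 96128435 to 96131054, plus strand) had 2.88 and 2.49 CPM in uniSTING and 3.01 and 2.81 CPM in Mock. Its groups overlapped, and the log2 fold change of -0.12 (SE 0.21, adjusted p = 0.681) did not pass. Hist1h2bc (H2bc4; chromosome 13, 23868182 to 23876891, plus strand) had 3.63 and 3.78 CPM in uniSTING, both above the 3.23 and 2.76 CPM of Mock, and did not pass either (log2 fold change 0.31, SE 0.19, adjusted p = 0.2001). The other H2B genes were at the low end of what could be counted. Hist1h2bj had 0 and 3 counts in uniSTING and 23 and 20 in Mock, and fell 14.9-fold in the fit, with a counting interval of 5.04 to 79.3 for its 15.7-fold lower summed count. Hist1h2bl, at 2 and 0 counts in uniSTING and 11 and 20 in Mock, Hist1h2bm, Hist1h2bg and Hist1h2bh fell as well, by 5.35-fold to 14.8-fold. No count of Hist1h2bn was found in uniSTING, against 10 and 8 in Mock, at least 6.59-fold lower when 3 counts over both uniSTING libraries are taken as the floor. Hist1h2bf likewise had none in uniSTING and 4 and 7 in Mock, at least 4.03-fold lower. Hist1h2be and Hist1h2bk did not pass, at 1.74-fold and 1.28-fold lower.

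H3 carries the N-terminal tail on which most of the well-known chromatin marks sit. Every one of the 9 H3 genes was tested and fell, against 25.4% of all tested genes. Hist1h3a, Hist1h3b and Hist1h3f had passed the filter through the Mock libraries alone. Hist1h3e and Hist1h3d were at its level in both Mock libraries but only 1 uniSTING library, and so depended on the Mock libraries too. The count of H3 genes that fell carries this limit. The class summed to 5.68 ± 0.260 CPM in uniSTING and 22.5 ± 0.882 CPM in Mock, a ratio of 0.252. Hist1h3e (H3c6; chromosome 13, 23745708 to 23746543, minus strand) had 14 and 9 counts in uniSTING, or 0.747 and 0.362 CPM, against 106 and 124 counts in Mock, or 6.01 and 5.61 CPM. Its groups lay far apart, and it fell 10.8-fold (log2 fold change -3.43, SE 0.29, adjusted p = 2.93e-06). Hist1h3h had 0.961 and 0.723 CPM in uniSTING and 3.63 and 3.94 CPM in Mock, a 4.53-fold fall. Hist1h3c and Hist1h3g fell 2.75-fold and 2.91-fold. Hist1h3i fell least, at 0.587 and 1.12 CPM in uniSTING and 2.33 and 1.63 CPM in Mock (log2 fold change -1.16, SE 0.38, adjusted p = 0.0261). Its call was lost with DESeq2, at an adjusted p of 0.0775, and in edgeR when replicate 1 of uniSTING was left out (adjusted p = 0.102) or that of Mock (adjusted p = 0.190). Hist1h3d, Hist1h3b, Hist1h3a and Hist1h3f, with fewer than 100 counts each, fell 3.37-fold to 4.77-fold.

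H4, the partner of H3, was split like H2B. Of 8 tested genes 4 fell and 4 did not pass, against 25.4% of all tested genes lower. Hist2h4 and Hist1h4f, among those that fell, had passed the filter through the Mock libraries alone. Hist1h4d and Hist1h4n, the others that fell, were at its level in both Mock libraries but only 1 uniSTING library. They too depended on the Mock libraries to pass. The class summed to 6.41 ± 0.309 CPM in uniSTING and 13.0 ± 0.325 CPM in Mock, a ratio of 0.493. Hist2h4 (H4c14; chromosome 3, 96168998 to 96170627, minus strand) had 0.320 and 0.281 CPM in uniSTING and 2.27 and 2.17 CPM in Mock, a 7.30-fold fall (log2 fold change -2.87, SE 0.38, adjusted p = 0.000102). Hist1h4d had 0.427 and 0.683 CPM in uniSTING and 2.84 and 2.31 CPM in Mock and fell 4.49-fold. Hist1h4n and Hist1h4f fell 3.10-fold and 5.70-fold. Hist1h4i (H4c9; chromosome 13, 22224806 to 22225532, minus strand) had 2.62 and 2.93 CPM in uniSTING, both above the 1.93 and 1.86 CPM of Mock, at a log2 fold change of 0.56 that did not pass (SE 0.23, adjusted p = 0.0678). For Hist1h4k the libraries overlapped, at 1.33 and 1.21 CPM in uniSTING and 1.30 and 2.04 CPM in Mock (adjusted p = 0.327). Hist1h4j and Hist4h4 did not pass, at 2.19-fold and 2.32-fold lower.

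**Figure D2:**
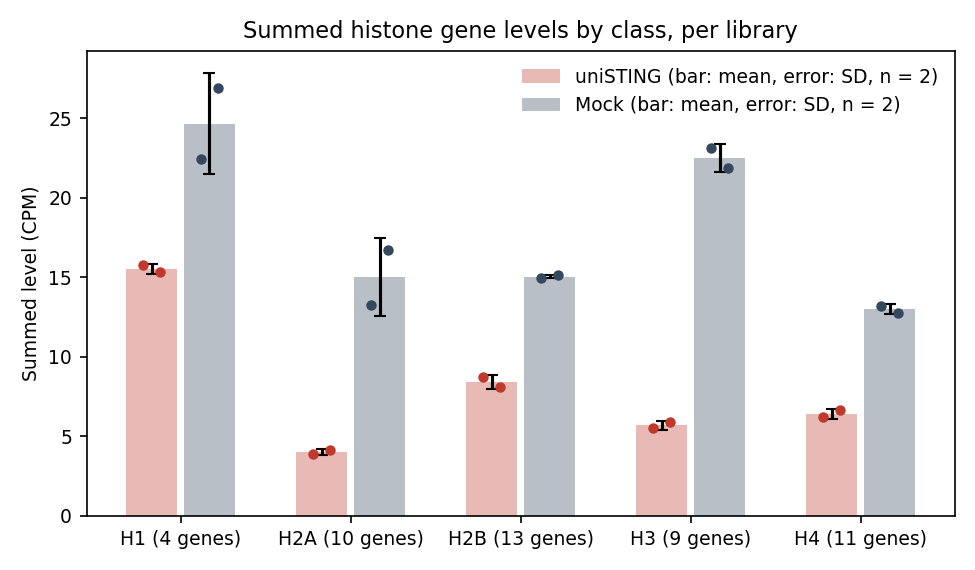
Summed CPM of the histone genes of each class (vertical axis), with bars for the mean, error bars for the SD and points for the 2 libraries of each group. All uniSTING sums lie below all Mock sums of the same class, and the ratio runs from 0.252 in H3 to 0.629 in H1.

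**Figure D3:**
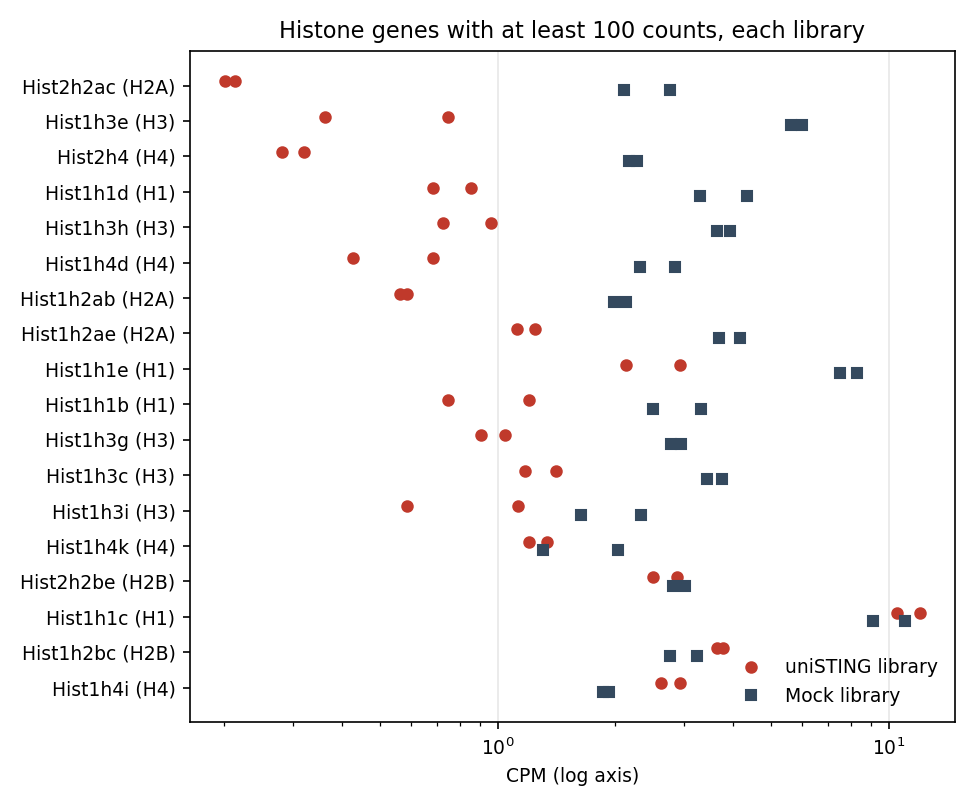
CPM on a log axis in each library for the 18 histone genes with at least 100 counts, sorted by log2 fold change from the lowest at the top. For 13 of them, down to Hist1h3i, both uniSTING libraries lie left of both Mock libraries and the gene passed the test, and the 5 at the bottom did not pass.

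With these levels the make-up of the counted histone RNA differed between the groups. Which form of the mRNA was counted is not known, so the shares describe these libraries and not all histone RNA of the cells. Hist1h1c, Hist1h2bc, Hist2h2be and Hist1h4i, a set chosen after their values were seen, held 52.8% and 49.1% of all member counts in the uniSTING libraries, against 19.9% and 19.7% in the Mock libraries. The other 43 genes together had 18.9 and 20.4 CPM in uniSTING and 69.7 and 75.03 CPM in Mock, 3.69-fold lower. H3 genes held 14.3% of the member counts in uniSTING and 24.8% in Mock, and H2A genes 10.1% in uniSTING and 16.8% in Mock.

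Many H2A and H2B genes stand back to back and share the stretch between them as a promoter. There were 12 such divergent pairs with at most 500 bases between the annotated ends, and in 6 of them both genes were members. Hist2h2ac and Hist2h2be are 238 bases apart. Their count ratios were 0.0836 (interval 0.0371 to 0.165) and 0.918 (0.703 to 1.20), which do not overlap. Among pairs chosen after their values were seen, Hist1h2ah and Hist1h2bk had ratios of 0.0911 (0.0178 to 0.293) and 0.780 (0.392 to 1.54), and Hist1h2ag and Hist1h2bj had ratios of 0.815 (0.398 to 1.66) and 0.0635 (0.0126 to 0.198). So in 3 of the 6 pairs the counting intervals of the neighbours did not overlap. Few 100-base transcript stretches of Hist1h2ah (10.5%), Hist1h2ag (23.8%) and Hist1h2bk (29.2%) occur in no other gene, so their levels are uncertain. The share was 59.9% for Hist1h2bj, 83.1% for Hist2h2ac and 100% for Hist2h2be. In the pair of Hist1h2ae and Hist1h2bg, 175 bases apart, both genes fell, 3.30-fold and 8.41-fold. Hist1h2bc faces Hist1h2ac, which had 0 and 1 count in uniSTING and 2 and 2 in Mock and is no member.

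Promoter windows from RefSeq (GRCm38.p6), 250 bases before to 50 after the start, matched 42 of the 47 genes and gave 43 windows. Those of the Hist2h2ac side of a split pair, of the Hist1h2ae side of a pair that fell together, of an H1 gene that did not pass and one that fell, and of Hist1h3e are printed, with the TATA box letters TATAAA, the CCAAT box letters CCAAT, the octamer letters ATTTGCAT (bound by POU2F1) and the H1 box letters AAACACA on either strand in capitals.
Hist2h2ac (chr3:96220831-96221130, minus strand): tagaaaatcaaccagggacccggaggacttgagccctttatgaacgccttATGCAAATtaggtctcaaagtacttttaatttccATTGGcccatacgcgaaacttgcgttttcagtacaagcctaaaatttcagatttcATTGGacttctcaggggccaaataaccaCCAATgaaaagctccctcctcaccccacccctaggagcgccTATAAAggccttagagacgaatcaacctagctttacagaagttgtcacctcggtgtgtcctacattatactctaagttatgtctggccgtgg
Hist1h2ae (chr13:23571171-23571470, minus strand): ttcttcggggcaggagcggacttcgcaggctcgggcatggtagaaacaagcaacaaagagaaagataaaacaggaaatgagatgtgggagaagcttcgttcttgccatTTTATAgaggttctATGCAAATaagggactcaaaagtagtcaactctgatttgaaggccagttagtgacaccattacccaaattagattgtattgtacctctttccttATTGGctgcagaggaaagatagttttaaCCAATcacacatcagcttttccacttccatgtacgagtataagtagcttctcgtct
Hist1h1c (chr13:23738557-23738856, plus strand): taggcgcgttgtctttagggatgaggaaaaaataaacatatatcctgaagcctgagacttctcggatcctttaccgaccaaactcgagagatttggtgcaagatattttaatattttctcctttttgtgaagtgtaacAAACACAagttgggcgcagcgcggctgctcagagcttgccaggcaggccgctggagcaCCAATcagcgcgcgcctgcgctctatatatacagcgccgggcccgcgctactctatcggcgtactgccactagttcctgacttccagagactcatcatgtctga
Hist1h1d (chr13:23554782-23555081, plus strand): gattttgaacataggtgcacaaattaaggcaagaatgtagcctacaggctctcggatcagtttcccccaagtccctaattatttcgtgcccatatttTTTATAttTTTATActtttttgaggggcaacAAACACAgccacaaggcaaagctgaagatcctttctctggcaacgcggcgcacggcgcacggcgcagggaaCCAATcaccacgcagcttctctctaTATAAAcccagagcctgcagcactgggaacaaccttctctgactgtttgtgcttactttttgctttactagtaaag
Hist1h3e (chr13:23562336-23562635, minus strand): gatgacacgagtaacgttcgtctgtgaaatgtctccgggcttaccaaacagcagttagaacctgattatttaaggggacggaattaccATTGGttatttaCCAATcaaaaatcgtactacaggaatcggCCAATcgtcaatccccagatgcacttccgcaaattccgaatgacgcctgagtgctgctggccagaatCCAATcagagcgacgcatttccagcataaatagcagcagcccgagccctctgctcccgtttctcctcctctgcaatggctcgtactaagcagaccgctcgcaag
CCAAT was in 36 of the 43 windows (83.7%), against 37.4% of all 32851 RefSeq windows, but in only 3 of 10 H4 windows. TATAAA was in 26 (60.5%), against 13.6% of all. ATTTGCAT was in 10, of which 5 were of 10 H2A windows and 5 of 12 H2B windows, against 1.74% of all. Windows of divergent neighbours overlap, so some letters were counted for both genes. Hist1h2ae and Hist1h2bg share 1 octamer, as do Hist1h2ah and Hist1h2bk, and the TATAAA letters in the Hist1h2ae window are also those of Hist1h2bg. AAACACA was in all 4 H1 windows, that of Hist1h1c included, against 7.18% of all. These matches are letters in a window and no evidence of binding.

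By position, the fall ran through both large parts of the Hist1 cluster. Split at gaps of over 100000 bases, the member genes of Hist1 form 3 blocks. The first, with 12 genes, summed to 5.44 ± 0.373 CPM in uniSTING and 17.8 ± 1.79 CPM in Mock, a ratio of 0.305. In it 7 of 9 tested genes fell, against 25.4% of all tested genes. The largest, with 24 genes, had a ratio of 0.454, and 16 of its 19 tested genes fell. In the smallest, with 5 genes, 2 of 4 tested genes fell. Its sum, which holds Hist1h4i, was 3.70 ± 0.331 CPM in uniSTING and 4.79 ± 0.763 CPM in Mock. In each block some of the genes that fell had passed the filter through the Mock libraries alone, so these counts overstate the share that fell. In Hist2, Hist2h2ac and Hist2h4 fell and Hist2h2be did not pass. Neither Hist3 gene was tested, and the one Hist4 gene did not pass.

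**Figure D4:**
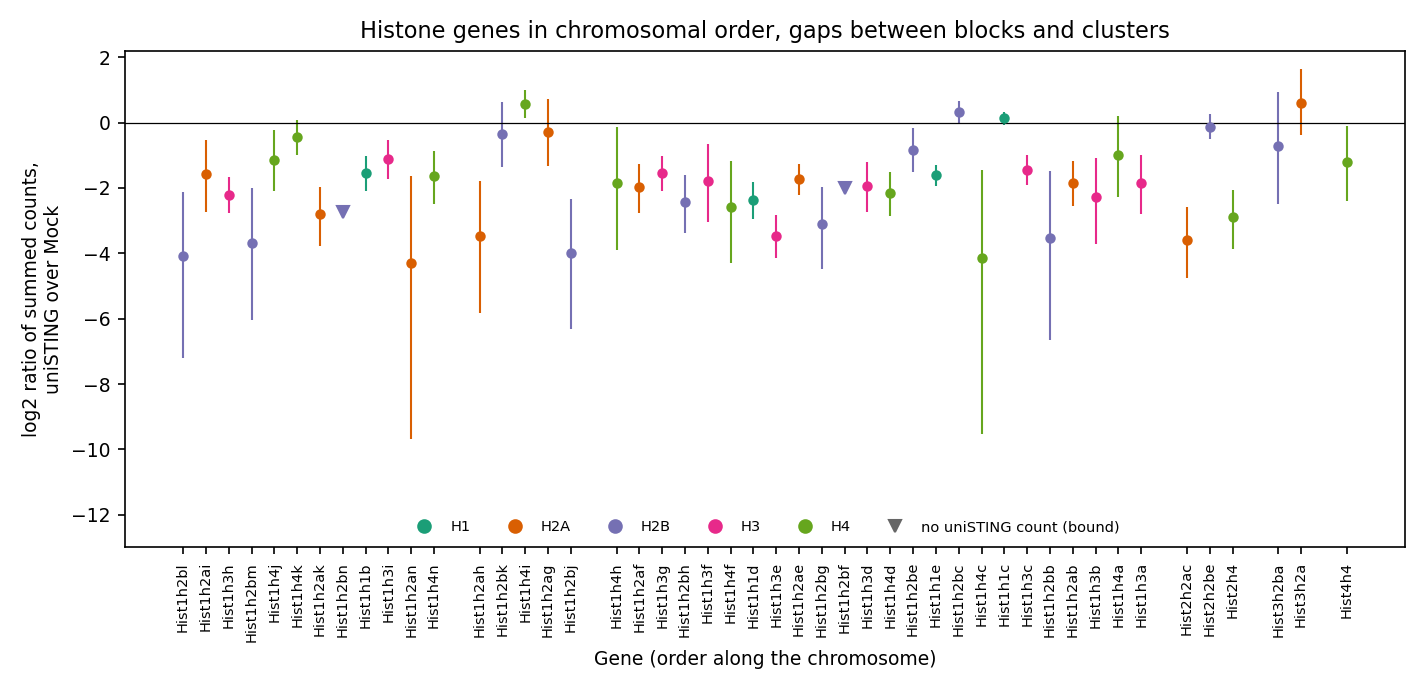
Log2 ratio of summed counts per library size, uniSTING over Mock, for the 47 histone genes in chromosomal order, with a gap between blocks and clusters. Points are coloured by class, lines are exact 95% counting intervals, and triangles mark Hist1h2bn and Hist1h2bf, which had no uniSTING count, at the bound given by a floor of 3 counts.

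Histone genes are near-copies of each other, and only uniquely mapped reads were counted. As a measure of this, the share of each gene's transcript stretches of 100 bases that occur in no other gene's transcripts was counted. Its median was 68.2% over the 47 genes and 20.9% over the 20 with fewer than 10 counts. Of the 10 genes with no count, 5 had no such stretch at all and 4 had over 70%, among them Hist1h1a and the testis gene Hist1h1t. Low ratios were found at both ends of this share. Of 19 members with over 75% of stretches of their own, 14 had a ratio of at most 0.5, with a median of 0.260, and of 7 members with under 25%, 6 did, with a median of 0.253. Levels of genes with so few stretches of their own are uncertain. Grouped by annotated 3′ end, a ratio of at most 0.5 was found in 13 of 15 members whose transcript ends within 100 bases of the stem-loop and in 13 of 19 that run further. It was also found in 10 of 13 with no match, a group set by the annotation and the letters searched and not by a known 3′ end. Members were short, with a median exon length of 0.539 kb against 4.15 kb over the tested genes.

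Other genes of histone supply changed less. Beside the counts that follow, 25.4% of all tested genes were lower and 24.9% higher. Of 9 tested replacement histone variants, many of which are also made outside S phase and from polyadenylated mRNAs, 6 rose, 2 fell and 1 did not pass, with a median log2 fold change of 0.18 (0.019 with a length trend removed). H2afz, which encodes H2A.Z, had 848 and 868 CPM in uniSTING and 707 and 712 CPM in Mock, a rise of 0.27 on the log2 scale (SE 0.02, adjusted p = 2.68e-07). H2afv rose 1.23-fold. H2afx, the variant phosphorylated at DNA breaks, had 115 and 121 CPM in uniSTING and 135 and 148 CPM in Mock, a 1.20-fold fall. Of 24 genes of histone transcription and 3′ processing, 5 rose, 7 fell and 12 did not pass, with a median of 0.02. Pou2f1, which binds the octamer, fell 1.91-fold to 21.9 and 19.7 CPM in uniSTING, against 38.3 and 40.7 CPM in Mock. The Sm protein genes Snrpg and Snrpe rose 1.87-fold and 1.41-fold. Slbp and Npat, singled out after their values were seen, differed little, with Slbp at 135 and 133 CPM in uniSTING and 127 and 122 CPM in Mock (log2 fold change 0.10, adjusted p = 0.0161) and Npat 1.11-fold lower (adjusted p = 0.0373). Of 16 histone chaperones, 6 rose, 4 fell and 6 did not pass, with a median of 0.0025. Supt16, a subunit of the FACT complex, fell 1.31-fold.

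Cell-cycle genes moved both ways, as did all tested genes, of which 25.4% were lower and 24.9% higher. Of 46 genes of DNA replication and G1/S, 19 rose, 15 fell and 12 did not pass, with a median of 0.05, and none fell 2-fold. Ccne2, which encodes cyclin E2, rose 1.44-fold, and the polymerase gene Pole fell 1.51-fold. Of 26 genes of G2/M and mitosis, 8 rose, 10 fell and 8 did not pass, with a median of -0.04. Mki67 had 153 and 163 CPM in uniSTING and 305 and 300 CPM in Mock, a 1.90-fold fall, and Cenpf fell 1.72-fold. The part of cell-cycle state in the histone values was not tested. As a check of the treatment, all 10 interferon-stimulated genes listed for it rose, Ifit1 to 12.3 and 12.5 CPM in uniSTING, against 3.12 and 2.31 CPM in Mock.

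**Figure D5:**
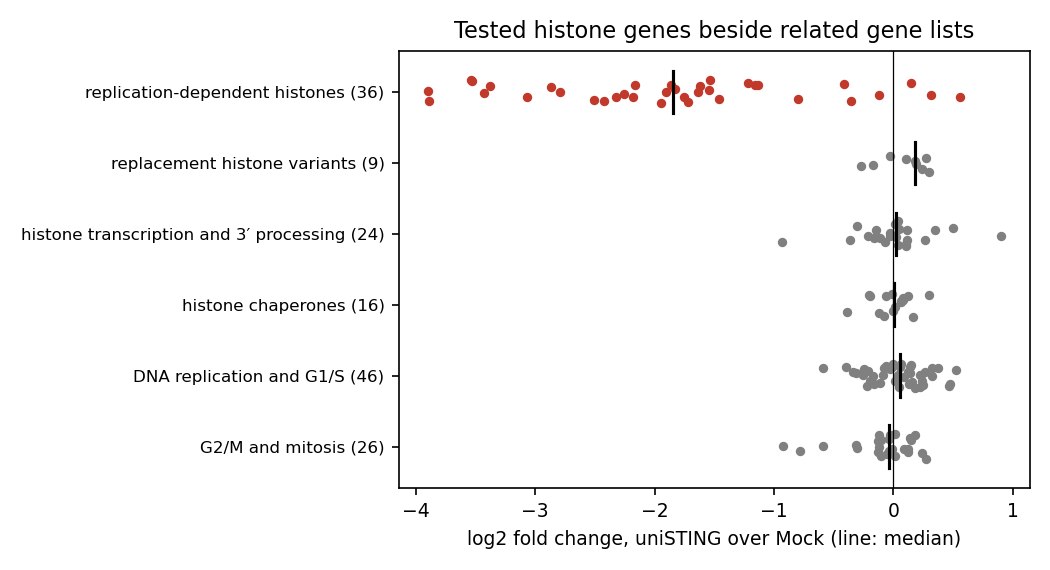
Log2 fold change of uniSTING over Mock (horizontal axis) for each tested gene of 6 lists (rows, with the number tested), with a line at the median. The histone genes of the S-phase clusters run down to -3.90 with a median of -1.85, and every gene of the other 5 lists lies between -1 and 1.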

How the data were processed

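RNA libraries of 2 uniSTING and 2 Mock samples of 4T1 cells were analysed, grouped and numbered by their titles. The authors deposited raw counts for each gene, which featureCounts 2.0.1, per the file headers, made from read pairs over exons grouped by gene, with no strand setting, from uniquely mapped reads and the annotation of Ensembl 103 (GRCm39). The submitters' processing notes also name HISAT2, a read aligner. Unique mapping costs near-identical copies reads, and reads on overlapping exons were not told apart.

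Symbols and biotypes came from GENCODE M21 by gene identifier. The genes, lists and named examples were chosen with earlier results of these data known. Every histone gene with at least 100 counts was named, with its divergent partner and the genes at the count limit, and up to 3 called genes a list; Slbp, Npat and some divergent pairs were added after their values were seen.

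The group contrast was fitted by edgeR 4.0.16 under R 4.3.3 (TMM, minimum count 10, minimum total 15, glmQLFit and glmQLFTest on the group, Benjamini-Hochberg adjustment over all 12972 tested genes, threshold 0.05). Standard errors derive from the F statistic. Count ratios use TMM-scaled library sizes, with exact 95% binomial intervals that cover counting error only. The variance between the 2 libraries of a group was 1.51 (uniSTING) and 1.47 (Mock) times counting noise over well-counted genes, by a robust estimate from the median absolute deviation. Over 20 (uniSTING) and 38 (Mock) histone genes it was 1.03 (uniSTING) and 1.41 (Mock) times, by a mean square and at a lower count limit. The estimates for all genes and for histone genes are thus not directly comparable. No 2 libraries were merged, and this spread does not show that the preparations were independent. Alternatives were DESeq2 1.42.0 and its size factors, limma-voom 3.58.1, other filters, a replicate block, removal of a trend with exon length (lowess, span 0.3) and leaving out each library; chosen after seeing the data was leaving out 54 genes seen only in replicate 1. The tests were tested on simulated data.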

Additional observations from a re-analysis of the deposited data

Results flagged for a closer look

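Hist1h2aj, a pseudogene and so outside the comparison, had 6 and 7 counts in the uniSTING libraries (13 in all), against 1 and 1 in the Mock libraries, above the Mock level. Only 8.30% of its 100-base stretches occur in no other gene. Hist1h2ad, left out for its low total, had 1 and 6 counts in uniSTING (7 in all) and 0 and 0 in Mock. Hist1h4b, left out for the same reason, had 1 and 7 counts in uniSTING (8 in all) and 0 and 0 in Mock. For Hist1h2ad and Hist1h4b most counts came from 1 uniSTING library, and 36.4% and 28.2% of their stretches are their own. Other genes left out were lower in uniSTING: the pseudogene Hist1h2al had 7 and 8 counts in uniSTING and 22 and 35 in Mock, Hist1h2ao had 1 and 0 in uniSTING and 3 and 4 in Mock, and Hist1h2bp had 0 and 0 in uniSTING and 1 and 4 in Mock.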

How the results depend on the processing

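No histone gene called lower was called higher in any setting run. The number lower was 27 with the default settings and with DESeq2's size factors, limma-voom and the replicate block, 24 with DESeq2, 28 with the length trend removed, 33 without the low count filter (15.7% of 21532 genes were then lower) and 20 at a minimum of 1 CPM in 2 libraries, and it ran from 21 to 27 as each library was left out, where the lone library of an arm is assumed to vary like the other group's. None was called higher in any setting. The median log2 fold change of tested histone genes was -1.85, became -2.13 with the length trend removed, and ran from -2.05 to -1.78 over the fits that left out 1 library. With the replicate block the median was -1.84, and 3403 genes were lower and 3374 higher over all genes, against 3290 and 3225 without it. Deviations of same-numbered libraries correlated at 0.661 over 10836 genes but at 0.060 without the 54 genes seen only in replicate 1, so same-numbered libraries share a difference that sits in those genes. With only 2 numbers, and no label saying that a preparation was shared between the groups, the libraries were not treated as paired. With only the genes of at least 100 counts, the ratio of summed CPM was 0.509 for all members in place of 0.444, 0.586 for H4 in place of 0.493, and 1.08 for H2B in place of 0.559, since only Hist1h2bc and Hist2h2be remained there. As each library was left out, the ratio for all members ran from 0.429 to 0.460. Of the 18 named genes, Hist1h1c changed sign with the length trend removed (-0.045) and Hist1h3i lost its call in 3 settings. Low counts limit the genes under 100 counts, where a few reads decide the ratio.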
